A study of Mus musculus with 6 samples.

Results

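The sequences described here are short RNAs from mouse urinary bladder cells that the authors' counting placed on the genome but assigned to no miRNA, piRNA, tRNA or other RNA feature, and that lie on a nuclear chromosome. They are the rows of the deposited sheet of uncharacterized mappable sequences whose chromosome is not the mitochondrial one, 933 of 1056 sequences, and no measured level entered that choice. Sequences on the same chromosome and strand whose starts lie within 30 bases of each other were merged into 1 locus by summing their UMIs (unique molecular identifiers, tags that let copies of 1 cDNA be counted once), which gave 393 nuclear loci of 410 in the sheet. The remaining 123 sequences form 17 mitochondrial loci. The nuclear loci hold 342310 UMIs over the 6 libraries, with a median of 132 per locus and as few as 26.

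The bladder cells came from mice of 8 weeks, and small RNA libraries were sequenced for 2 groups of 3. Control mice were given saline intraperitoneally. CYP mice were given cyclophosphamide, an alkylating drug whose breakdown products reach the urine and injure the bladder lining, 80 mg/kg by the same route 4 times, on days 2, 4, 6 and 8, and their label gives a time of 8 days after induction. The labels give no strain or sex. A Qiagen kit for miRNA libraries was used on 100 ng of total RNA each. Whether each library of a group is from its own animal is not said, so the p-values rest on a spread between samples that may be technical. The preparations are bulk, so fewer cells of a type and less RNA per cell cannot be told apart.

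Many short RNAs are pieces of longer ones whose ends are set by defined steps. A tRNA gene is transcribed by RNA polymerase III with extra bases on either side; RNase P removes the 5′ leader, RNase Z releases the 3′ trailer, which ends in the run of T bases where the polymerase stops, and an enzyme then adds the letters CCA, which the gene does not encode, to the 3′ end. A miRNA hairpin is cut by Drosha and then by Dicer into mature arms, and the bases just after an arm's 5′ end, its seed (bases 2 to 8), select its targets, so a shift of that end gives another seed. Small nucleolar RNAs (snoRNAs) of the C/D kind guide the methylation of other RNAs and carry a C box near the 5′ end and a D box near the 3′ end.

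The first sequence shown is that of the locus called in the comparison of the groups below. It lies at chr11:86584142-86584158 (build mm10, minus strand), in the first bases of the hairpin of Mir21a, which gives miR-21a-5p, a miRNA abundant in many injured and inflamed tissues. Capitals in the hairpin (RefSeq, chr11:86584067-86584158) mark the mature arms, and the whole locus is in capitals on the line after it.
Mir21a hairpin: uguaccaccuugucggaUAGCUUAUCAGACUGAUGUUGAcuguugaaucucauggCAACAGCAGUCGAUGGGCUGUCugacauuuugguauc
Mir21a flank: TGTACCACCTTGTCGGA
The flank ends at the base before the mature 5p arm and holds none of that arm.

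A further set of hairpin loci lies on a mature arm but starts before it. The 4 printed here show the shift, with bases 2 to 8 in capitals in the locus and in the RefSeq arm. The loci lie at chr6:124717960-124717982 (minus strand), chr16:77646316-77646337, chr11:87756864-87756885 and chr4:150068471-150068493 (plus strand), all in mm10.
Mir141 locus: tCCATCTTccagtgcagtgttgg
miR-141-5p: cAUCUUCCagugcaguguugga
Mir125b-2 locus: tCACAAGTcaggttcttgggac
miR-125b-2-3p: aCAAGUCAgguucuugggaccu
Mir142 locus: aCCCATAAagtagaaagcacta
miR-142a-5p: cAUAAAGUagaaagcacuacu
Mir34a locus: tTTGGCAGtgtcttagctggttg
miR-34a-5p: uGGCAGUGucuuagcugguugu
The Mir142 locus starts 3 bases before its arm and the other 3 loci start 2 bases before theirs. Of the 31 hairpin loci set beside an arm, 14 overlap it. All 14 start before it, so in none are bases 2 to 8 those of the arm. None of these 14 runs of letters stands at bases 2 to 8 of another RefSeq arm compared here. Arms such as those of Mir145a and Mir143 were not compared.

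Loci over tRNA genes fall on 3 parts of the precursor, and 2 to 4 of each are shown. At 3′ ends the capitals mark the CCA at the end of the sequence. They lie at chr1:171111502-171111518 (plus strand), chr10:128458461-128458478 (minus), chr1:34434809-34434830 (minus) and chr10:30811188-30811214 (plus).
n-TVcac6 3′ end: accgggcggaaacaCCA
n-TScga2 3′ end: atcctgttcgtgacgCCA
n-TEttc1 3′ end: tcgactcccggtatgggaaCCA
n-TEctc9 3′ end: cgggttcgattcccggtcagggaaCCA
In the gene names the letter after T is the amino acid (V valine, S serine, E glutamate) and the next 3 letters are the anticodon. The trailers lie at chr16:13437395-13437425, chr14:54517769-54517790 and chr11:79704722-79704741 (plus strand), and capitals mark their final T run.
n-TTcgt5 trailer: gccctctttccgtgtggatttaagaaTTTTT
n-TRacg6 trailer: ttgggactggtactcctttaTT
n-TTcgt3 trailer: gcgtttggaagagataTTTT
At 5′ ends the capitals mark bases that precede the annotated gene, at chr19:12006035-12006074 (plus), chr10:63429540-63429558 (minus), chr4:10874063-10874081 (plus) and chr3:96464010-96464044 (minus).
n-TKctt29 5′ end: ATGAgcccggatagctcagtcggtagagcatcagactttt
n-TStga3 5′ end: Agcagcgatggccgagtgg
n-TSaga9 5′ end: Agtagtcgtggccgagtgg
n-THgtg1 5′ end: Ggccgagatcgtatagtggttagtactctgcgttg

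Loci over other structured RNAs are shown for their ends. The 18S rRNA locus at chr17:39846353-39846387 (plus strand) starts 1 base before the annotated first base of Rn18s-rs5, in capitals. Rmrp, the RNA of the RNase MRP complex that cuts the rRNA precursor, has a locus placed from its annotated first base, chr4:43493030-43493059 (minus strand).
Rn18s-rs5 5′ end: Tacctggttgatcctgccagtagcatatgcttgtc
Rmrp 5′ end: agctcgctctgaaggcctgtttcctaggct
In the C/D snoRNAs Snord104 (chr11:106500991-106501023 and chr11:106501026-106501065, plus strand) and Snord43 (chr15:80082897-80082919 and chr15:80082859-80082885, minus strand), capitals mark TGATGA, the C box letters, in the 5′ part and the last CTGA, the D box letters, in the 3′ part, where an earlier CTGA is left in lower case.
Snord104 5′ part: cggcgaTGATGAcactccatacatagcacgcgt
Snord104 3′ part: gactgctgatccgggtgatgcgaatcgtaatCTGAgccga
Snord43 5′ part: acaaaTGATGAaccttttgacgg
Snord43 3′ part: ctctgtgctgaatgtcaagttCTGAtt

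Some loci carry the letters of a tRNA end but were placed elsewhere. One at chr5:81093738-81093755 (minus strand) has the end of the mitochondrial tryptophan tRNA, mt-Tw, and one at chr13:40086812-40086828 (plus strand), opposite Ofcc1, has the end of tyrosine tRNA genes, both with CCA in capitals.
mt-Tw tail: caagtttaacttctgCCA
Ofcc1 locus: tccggctcgaaggaCCA

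Measured over UMIs, the nuclear sequences have a median length of 22 bases, and they run from 16 to 46 bases. Sequences of 16 to 19 bases take 28.0% of the UMIs, those of 20 to 24 bases 34.1% and those of 30 or more 30.6%. A single sequence makes up 252 of the 393 loci, 14 loci hold 10 or more sequences, and the largest holds 64. The loci lie on 21 chromosomes, with 205 on the plus strand and 188 on the minus strand. Levels are uneven: the top 2 loci take 29.0% of the UMIs and the top 10 take 53.1%. By shared runs of 16 bases the loci form 249 families, and 214 loci share such a run with at least 1 other locus. Loci of 1 family may count the same RNA at several places, so they are not independent. No nuclear sequence lies letter for letter within a GENCODE transcript of the small RNA types searched, such as snoRNA and rRNA. Sequences placed within the bounds of such a RefSeq gene, as at Rmrp, are named here by place alone. Whether their letters or the annotations differ was not tested. GENCODE miRNA hairpins were not among these types, and some sequences, such as the Mir21a flank, do lie within a RefSeq hairpin.

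By annotation, loci on tRNA genes or their trailers hold the most UMIs, 25.5% in 80 loci, followed by rRNA with 21.7% in 4 loci and miRNA hairpins with 17.6% in 36 loci. Loci with a gene on the opposite strand only hold 10.5% in 58 loci, and loci with no annotated gene hold 8.63% in 103 loci. The 25 loci of snoRNAs and scaRNAs (their relatives in Cajal bodies) hold 5.52%, 2 loci of Rmrp 2.96%, and 21 loci in exons of protein-coding genes 2.94%. Introns on the same strand hold 2.75% in 51 loci, small nuclear RNAs (snRNAs, the RNAs of the splicing machinery) 1.42% in 3 loci, and 7SL and Y RNAs with 2 other genes 0.303% in 5 loci. Exons of genes not typed as protein-coding hold 0.281% in 5 loci. The plot labels this class as long non-coding RNA or pseudogene, but immunoglobulin exons also fall in it.

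**Figure D1:**
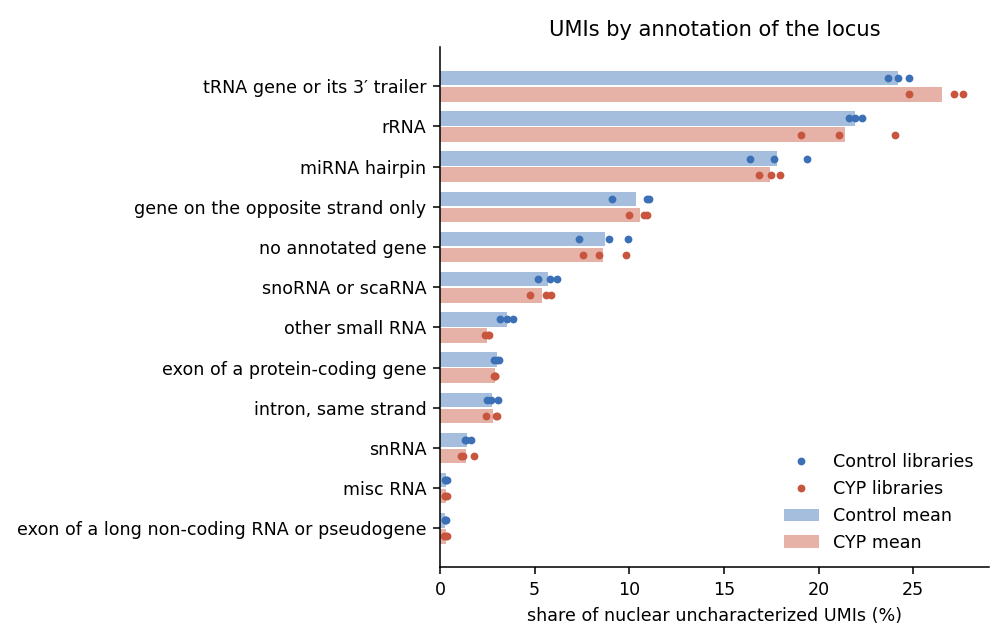
Share of the nuclear uncharacterized UMIs (x axis, percent) by annotation class of the locus (y axis), with a bar for the mean of each group and a point for each of the 3 libraries. tRNA genes and trailers lead with 24.2% in Control and 26.5% in CYP, and the Rmrp class, labelled other small RNA, is the 1 with Control points from 3.19% to 3.83% above CYP points from 2.35% to 2.56%.

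The plot of shares by class shows the same order of the leading classes in both groups. The tRNA class took 24.8%, 23.7% and 24.2% of the nuclear UMIs in Control 1 to 3 and 27.2%, 27.6% and 24.8% in CYP 1 to 3. The lowest CYP library lay just above the highest Control library (exact two-sided permutation test, p = 0.1, the smallest that 3 against 3 allows, adjusted over 12 classes 0.6). The Rmrp class took 3.83%, 3.19% and 3.54% in Control and 2.51%, 2.56% and 2.35% in CYP, without overlap (exact p = 0.1, adjusted 0.6). The 10 remaining classes gave exact p-values from 0.3 to 1.0.

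Between the groups, 346 nuclear loci had enough UMIs to be tested, and the other 47 hold 26 to 97 UMIs each. Levels are given in CPM, UMIs per 1000000 UMIs of the uncharacterized sheet after scaling by trimmed means (TMM), and fold changes are log2 values of CYP over Control ± SE. By edgeR's quasi-likelihood test with Benjamini-Hochberg adjustment over the 363 loci tested in the sheet, 1 nuclear locus was called higher in CYP at an adjusted p below 0.05, and 0 were called lower. Over all 363 loci, 0.275% were called higher, 0.275% lower and 0.551% in either direction. At an unadjusted p below 0.05 there were 30 nuclear loci higher and 19 lower, and DESeq2 called 4 higher and 8 lower. Over the whole sheet, 14.0% passed that unadjusted threshold, against 49 of 346 nuclear loci.

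Groups did not overlap at 46 nuclear loci with all CYP libraries higher and 35 with all lower, 81 of 346 together. The shares over the whole sheet were 12.9% higher, 10.5% lower and 23.4% in either direction. Nuclear loci make up 346 of the 363 loci tested in the sheet, so these shares could hardly differ from the nuclear ones and give no separate background. The median log2 fold change was 0.12 over the nuclear loci and 0.09 over all loci, and 197 of 346 values were above 0. Values ran from −2.91 to 3.34, but among the 52 loci with 1000 or more UMIs they ran from −1.08 to 1.28, and 45 of these 52 were below 0.5 in size. The loci named below other than the most abundant ones, those in listed genes and the called one were chosen after their values were seen.

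**Figure D2:**
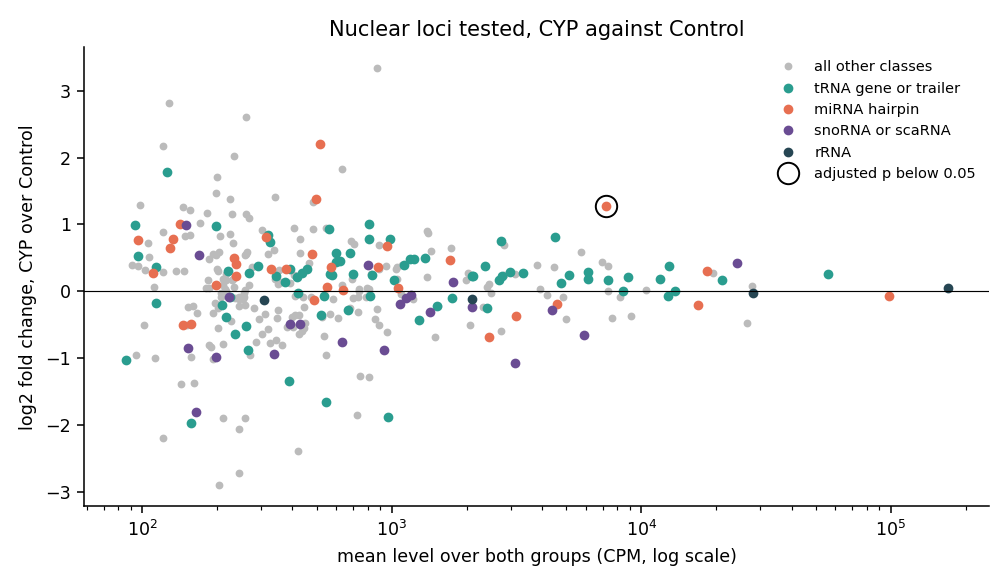
log2 fold change of CYP over Control (y axis) against the mean level over both groups in CPM (x axis, log scale) for the 346 tested nuclear loci, coloured by class, with a ring around the 1 locus with an adjusted p below 0.05. The spread narrows with level, from between −2.91 and 3.34 over all loci to between −1.08 and 1.28 for those of 1000 or more UMIs.

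The Mir21a flank, shown above beside its hairpin, is the called locus. It stood at 4473, 3885 and 4264 CPM in Control 1 to 3 and at 11686, 10489 and 8425 CPM in CYP 1 to 3. Every CYP library lay above every Control library. The mean rose from 4207 ± 298 to 10200.0 ± 1649.9 CPM (SD, n = 3 each), 2.42-fold, a log2 fold change of 1.28 ± 0.18 (edgeR, adjusted p = 0.0120). The call rests on 2754 UMIs in 5 sequences and is lost without Control 3 (log2 fold change 1.24, edgeR adjusted p = 0.0510), without CYP 1 (1.12, 0.113) or without CYP 2 (1.19, 0.0787).

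The arm next to this flank is counted in the authors' miRNA table, so both could be set side by side. On the CPM scale of that table, miR-21a-5p stood at 24966, 25228 and 26852 CPM in Control and at 48071, 42811 and 53127 CPM in CYP, a log2 ratio of the means of 0.90. Per 1000 UMIs of the arm, the flank had 0.853, 0.901 and 0.917 UMIs in Control and 1.46, 1.55 and 1.04 UMIs in CYP. These ratios did not overlap between the groups (exact two-sided permutation test, p = 0.1, the smallest possible).

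Of the 36 hairpin loci, 31 were set beside a RefSeq mature arm. Those in Mir145a, Mir143, Mir378a and Mir30b were not, and the counts of place that follow leave them out. Of the 31 loci, 14 overlap an arm, and all 14 start before it, 13 of them by exactly 2 bases. Sequences that the authors' counting assigned to a miRNA are not in the sheet, so this shift describes only those left unassigned. Another 14 end next to the 5′ end of a mature arm, 1 starts next to a 3′ end and 2 lie elsewhere in the hairpin. The arm that follows is a 5p arm in some of the 14, as for the Mir21a flank, and a 3p arm in others, as in Mir182. These sequences thus lie on different parts of the hairpin. Among the 32 tested hairpin loci, 24 had a log2 fold change above 0 and 8 below, with a median of 0.33 against 0.12 over all nuclear loci. Groups did not overlap at 6 with CYP higher and 3 with CYP lower, near the 23.4% of the whole sheet. The most abundant hairpin locus lies in Mir145a, whose miRNA is typical of smooth muscle. It holds 36431 UMIs, 10.6% of the nuclear total, and ran from 85980.4 to 116134 CPM in Control and from 81506 to 116992 CPM in CYP. Its groups overlapped (log2 fold change −0.07 ± 0.18, edgeR adjusted p = 0.911).

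The Mir141 locus, on the 5p arm of a miR-200 family hairpin that is typical of epithelium, stood at 18347, 15259 and 15536 CPM in Control and at 22440.1, 19334 and 19097 CPM in CYP. All CYP libraries were higher, but the difference did not pass the test (log2 fold change 0.31 ± 0.15, edgeR adjusted p = 0.407). The shifted sequences outnumber the annotated arm here, with 2137, 2069 and 2418 UMIs per 1000 UMIs of miR-141-5p in Control and 2151, 2016 and 2502 in CYP. That ratio overlapped between the groups (exact two-sided p = 0.9).

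The Mir382 locus, in the long non-coding RNA Mirg, exceeded its arm by more, with 3647, 6679 and 6462 UMIs per 1000 UMIs of miR-382-3p in Control against 2984, 2770 and 2514 in CYP (exact p = 0.1). Here the arm itself was rare, at 3.07 to 4.62 CPM in Control and 5.50 to 7.66 CPM in CYP on the scale of the miRNA table. On the scale of the uncharacterized sheet, the locus stood at 3540.0, 3509.8 and 3582 CPM in Control and 2739, 2573 and 2927 CPM in CYP. These scales have different totals, so the CPM values of arm and locus cannot be set against each other. The locus was lower in all CYP libraries without passing the test (log2 fold change −0.37 ± 0.17, edgeR adjusted p = 0.366). The Mir125b-2 locus had 334, 318 and 315 UMIs per 1000 UMIs of miR-125b-2-3p in Control and 391, 412 and 418 in CYP, again without overlap (exact p = 0.1). All nuclear UMIs together also rose against the UMIs of all tables, as given above, and the part of that in this ratio was not tested. The level of the Mir125b-2 locus was 18012 ± 2273 CPM in Control and 15603 ± 112 CPM in CYP (log2 fold change −0.21 ± 0.15, edgeR adjusted p = 0.559).

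The Mir142 locus, on an arm of a hairpin typical of leukocytes, stood at 3083, 3359.6 and 2658 CPM in Control and at 1807, 1568 and 2296 CPM in CYP. No CYP library reached the lowest Control library, and the test was not passed (log2 fold change −0.68 ± 0.21, edgeR adjusted p = 0.196). Its arm miR-142a-5p overlapped between the groups, at 189, 230 and 224 CPM in Control and 158, 156 and 259 CPM in CYP on the scale of the miRNA table. The log2 ratio of that arm's means was −0.17. The Mir34a locus, whose arm miR-34a-5p is induced by p53, is low, with 20, 10 and 0 UMIs in Control and 49, 52 and 63 UMIs in CYP. CYP was higher in every library (log2 fold change 2.21 ± 0.75, edgeR adjusted p = 0.218), and the log2 ratio of the mature arm's means was 1.44. Without Control 1 the fold change was 3.20 and edgeR called it (adjusted p = 0.0460), and without Control 3 it was 1.53. In Mir182, the locus that ends next to the 5′ end of miR-182-3p stood at 343, 319 and 171 CPM in Control and at 903, 685 and 549.8 CPM in CYP. Its groups did not overlap (log2 fold change 1.38 ± 0.35, edgeR adjusted p = 0.102), and the log2 ratio of the arm's means was 0.64.

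**Figure D3:**
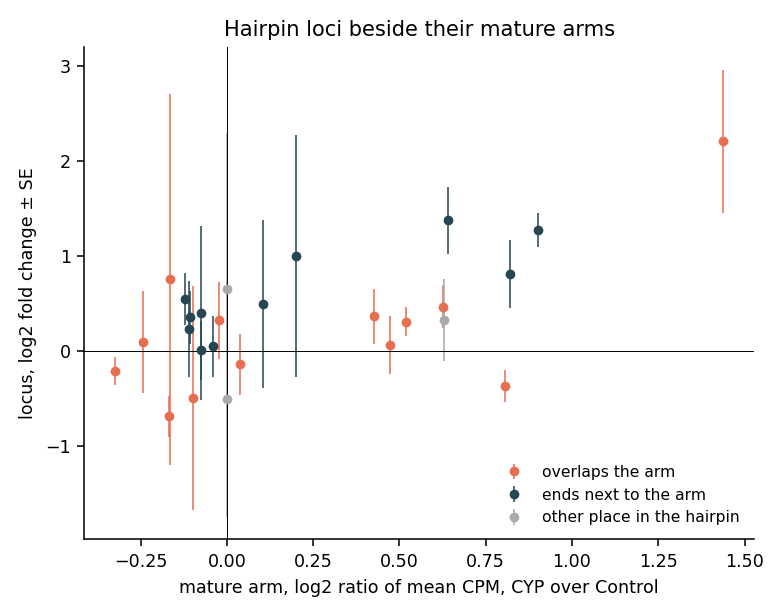
log2 fold change ± SE of each hairpin locus (y axis) against the log2 ratio of mean CPM of its mature arm, CYP over Control (x axis), for the 27 tested loci with a measured arm, coloured by place in the hairpin. The Mir34a locus lies at the upper right at 1.44 and 2.21, the Mir21a flank at 0.90 and 1.28, and the Mir382 locus below 0 at 0.80 and −0.37.

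In the plot of hairpin loci beside their arms, loci from the same library share its scaling, so the points are not independent, and the plot is given as a description.

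The tRNA loci lie on 77 genes for 17 amino acids. At 3′ ends, 118 sequences reach past the annotated gene, which does not encode the CCA. Of these, 73 end in CCA, with 78.3% of their UMIs, and all 73 end exactly 3 bases past the gene. Elsewhere 83 of 815 nuclear sequences end in CCA, with 12.8% of the UMIs there. Sequences that end 4 bases past the gene hold 9.84% of the UMIs at 3′ ends and those 5 bases past hold 5.88%. Of the 47463 UMIs of the 3′ end loci, valine genes give 22255, glutamate genes 7606, serine genes 6875 and a single alanine locus 5082.

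The 39 loci whose most abundant sequence covers a 3′ end hold 13.9% of the nuclear UMIs. Of the 38 tested, 29 had a log2 fold change above 0, with a median of 0.24 against 0.12 over all nuclear loci. Groups did not overlap at 5 of the 38, all with CYP higher, which is near the 12.9% of the whole sheet, and none was called. The n-TVcac6 locus, with 21007 UMIs, stood at 53328, 49700.1 and 50545 CPM in Control and at 63459, 66648 and 52845 CPM in CYP. The CYP values reached down to the Control range (log2 fold change 0.25 ± 0.15, edgeR adjusted p = 0.471). The n-TEctc9 locus stood at 2074, 3941 and 3753 CPM in Control and at 4779, 5709 and 6711 CPM in CYP. It was higher in all CYP libraries but did not pass the test (log2 fold change 0.81 ± 0.26, edgeR adjusted p = 0.196). Letters of n-TEctc9 are shared with 11 other loci, in the largest family of 12, so the level may come from several glutamate genes.

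Trailers make up 98 sequences, which all start just past the gene. Of these, 80 start at the first base after it, with 85.1% of the trailer UMIs, and 18 at the second base. A final TTT ends 68 of the 98, with 73.7% of their UMIs, while 47 of the 835 other nuclear sequences end so, with 2.00% of the UMIs. In the 29 trailer loci the most abundant sequence is 16 to 38 bases long and ends in TTT in 25. Threonine genes give 31.0% of the trailer UMIs, arginine genes 21.7%, alanine genes 19.1% and histidine genes 15.6%.

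**Figure D4:**
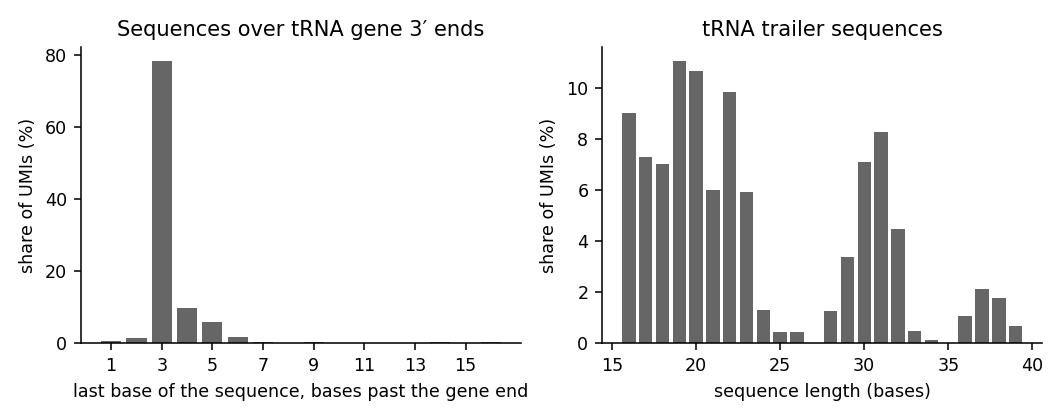
Left, share of UMIs (y axis, percent) by the distance of a sequence's last base past the tRNA gene's 3′ end (x axis, bases). Right, share of trailer UMIs (y axis, percent) by sequence length (x axis, bases). At 3′ ends 78.3% of the UMIs end 3 bases past the gene, and trailer lengths group near 16 to 23, 29 to 32 and 36 to 39 bases.

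As the plot of last bases shows, no other distance past the gene comes near the one that CCA occupies. Trailers took 10.7%, 9.86% and 10.3% of the nuclear UMIs in Control and 11.2%, 10.95% and 11.1% in CYP. All CYP libraries were higher (exact two-sided p = 0.1, the smallest possible). Of the 28 trailer loci tested, 19 had a log2 fold change above 0, with a median of 0.25 and none called. Groups did not overlap at 5 with CYP higher and 1 lower, near the 23.4% of the whole sheet. The n-TTcgt5 trailer, the most abundant, ran from 16858 to 22934 CPM in Control and from 21005 to 22950.1 CPM in CYP (log2 fold change 0.16 ± 0.16, edgeR adjusted p = 0.714). The n-TRacg6 trailer was at 11171 ± 1499 CPM in Control and 14574 ± 3472 CPM in CYP, and the n-TTcgt3 trailer at 5509 ± 719 and 6742 ± 803 CPM. Neither difference passed the test.

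At 5′ ends there are 12 loci with 0.852% of the nuclear UMIs. The most abundant sequence starts 1 base before the gene in 7, 3 bases before in 2, 4 bases before in 2 and inside the gene in 1. Lysine genes give 68.0% of their UMIs in 4 loci. Of the 10 tested, 4 had a log2 fold change above 0 and 6 below, with a median of −0.53, and groups did not overlap at 1 with CYP higher and 5 lower, beside 12.9% and 10.5% over the whole sheet. The 4 lysine loci share their letters and hold the 4 values above 0. The 4 serine loci, of which n-TSaga9 and n-TStga2 share letters, had a median of −1.51.

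The 5′ end of n-TStga3, a serine tRNA gene, stood at 933, 826 and 725 CPM in Control and at 248, 365 and 162 CPM in CYP. Every CYP library lay below every Control library (log2 fold change −1.67 ± 0.34, edgeR adjusted p = 0.0642). DESeq2 called it lower (adjusted p = 0.00847). The 3′ end of the same gene stood at 780.3, 375 and 441 CPM in Control and at 699, 624 and 549.8 CPM in CYP, with overlapping groups (log2 fold change 0.24, or −0.63 when starts within 100 bases are merged and both ends are summed). The ratio of 5′ to 3′ UMIs was 1.20, 2.20 and 1.65 in Control and 0.354, 0.585 and 0.294 in CYP. These ratios did not overlap (exact two-sided p = 0.1, adjusted over 5 genes with a locus at either end 0.25). The letters of this 3′ end also stand in loci placed elsewhere, in a family of 6 loci with 3482 UMIs. The locus in Nek11 holds 2753 of them, so the ratio covers only the 3′ ends placed at the gene.

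A second serine gene, n-TSaga9, gave 571, 582 and 526 CPM at its 5′ end in Control and 248, 213 and 194 CPM in CYP. No CYP library came near the Control range (log2 fold change −1.35 ± 0.28, edgeR adjusted p = 0.0642, DESeq2 adjusted p = 0.0367). The valine locus at n-TVcac3 stood at 2569, 1145 and 839 CPM in Control and 219, 518 and 485 CPM in CYP (log2 fold change −1.89 ± 0.49, edgeR adjusted p = 0.102, DESeq2 adjusted p = 0.0262). The lysine locus at n-TKctt29 went the other way, with 2360.0, 2252 and 1521 CPM in Control and 4299, 3395 and 2603 CPM in CYP. Its groups did not overlap, and the test was not passed (log2 fold change 0.75 ± 0.25, edgeR adjusted p = 0.217). The histidine locus at n-THgtg1 was at 344 ± 131 CPM in Control and 185 ± 60.5 CPM in CYP (edgeR adjusted p = 0.396). The tRNA table itself differed in 1 library: Control 1 had 15.6% of all its UMIs in tRNA features, against 5.25% to 8.87% in the other 5, and the part of that in these loci was not tested. Leaving out Control 1 brought n-TStga3 (log2 fold change −1.67, edgeR adjusted p = 0.0278) and n-TSaga9 (−1.44, 0.0340) under the edgeR threshold.

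The rRNA loci are led by the 5′ end of 18S rRNA, the RNA of the small ribosomal subunit, with 62790 UMIs or 18.3% of the nuclear total. It holds 40 sequences of 16 to 46 bases, and 23 of them, with 97.8% of the UMIs, start 1 base before the annotated gene. The level was 180957, 159067 and 159724 CPM in Control and 162064, 133174 and 221533 CPM in CYP. The CYP libraries spanned the Control range on both sides (log2 fold change 0.05 ± 0.19, edgeR adjusted p = 0.937). Part of its letters recur in a locus opposite Gnb1l on chromosome 16, which holds 10348 UMIs and gave a log2 fold change of 0.08. An internal 18S locus begins 288 bases into the gene and holds 64 sequences with 10416 UMIs, at 28203 ± 2202 CPM in Control and 27632 ± 7655 CPM in CYP (log2 fold change −0.03). Of the 4 rRNA loci, the other two are 3′ ends of 5S genes, which carry 2 bases past the annotation.

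Rmrp gave 9727 UMIs at its 5′ end, at 35704, 26727 and 29807 CPM in Control and 21755, 21465 and 23075 CPM in CYP. All CYP libraries lay below all Control libraries. The mean was 1.39-fold lower in CYP (log2 fold change −0.48 ± 0.15), which edgeR did not call (adjusted p = 0.216) and DESeq2 did (adjusted p = 0.00136). The 3′ end of Rmrp, with 400 UMIs, stood at 976 ± 356 CPM in Control and 1114 ± 362 CPM in CYP, and the ratio of the ends overlapped between the groups (exact p = 0.3).

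Among the 25 snoRNA and scaRNA loci, the most abundant sequence lies at the 5′ end in 12, at the 3′ end in 12 and over both in 1, where 1 of those at 5′ ends lies wholly upstream of the RefSeq gene, AF357399. The letters TGATGA are in 5 of the 12 sequences at 5′ ends and in 1 of the 12 at 3′ ends, and CTGA is in 3 and 10 of them. Over the leading sequences of the 368 other nuclear loci, 0.543% hold TGATGA and 9.78% hold CTGA, on the sequenced strand. In 16 of the 25 the sequence runs past an annotated gene end or lies beyond it. Over the 39 leading sequences on structured RNAs of all kinds and on the longer genes Gm4983 and 9430097D07Rik, 13 run past the 3′ end by 1 to 4 bases. In 11 the sequence starts before the 5′ end.

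Of the 22 snoRNA and scaRNA loci tested, 5 had a log2 fold change above 0 and 17 below, with a median of −0.30 against 0.12 over all nuclear loci. Groups did not overlap at 1 with CYP higher and 8 lower, beside 12.9% and 10.5% over the whole sheet, and none was called. The 5′ part of Snord104 stood at 4625, 5030.1 and 3013 CPM in Control and at 1749, 2116 and 2134 CPM in CYP. It was 2.11-fold lower in CYP without overlap (log2 fold change −1.08 ± 0.23, edgeR adjusted p = 0.0642, DESeq2 adjusted p = 0.00470), and edgeR called it without Control 1 (−1.11, adjusted p = 0.0339). The 3′ part stood at 8469, 6813 and 6411 CPM in Control and at 5377, 5161 and 3202 CPM in CYP, also without overlap (log2 fold change −0.66 ± 0.23, edgeR adjusted p = 0.218). The ratio of its parts overlapped (exact p = 0.4).

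Snord43, in an intron of the ribosomal protein gene Rpl3, gave the most snoRNA UMIs, 9039 at its 3′ part. That part stood at 22705, 19632 and 19658 CPM in Control and at 30382, 26443 and 25792 CPM in CYP. It was the snoRNA locus with CYP higher and no overlap (log2 fold change 0.41 ± 0.15, edgeR adjusted p = 0.235). The 5′ part stood at 2360.0, 2158 and 2303 CPM in Control and 1661, 1933 and 2199 CPM in CYP, with overlap (log2 fold change −0.24, or 0.35 when starts within 100 bases are merged and both parts are summed). The ratio of 5′ to 3′ UMIs was 0.104, 0.11 and 0.117 in Control and 0.0547, 0.0731 and 0.0853 in CYP, without overlap (exact p = 0.1, adjusted over the 5 genes 0.25).

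Most other loci on small structured RNAs differed by less than the spread between libraries. The leading snRNA locus, in Gm24265, was at 10371 ± 1139 CPM in Control and 10514 ± 3978 CPM in CYP. Rn7s1 and Rn7s2, genes of the 7SL RNA that directs secreted proteins to the endoplasmic reticulum, were at 1264 ± 189.9 and 737 ± 315 CPM in Control and at 1172 ± 456 and 744 ± 293 CPM in CYP. Rny1, a Y RNA, was at 374 ± 107 and 406 ± 41.0 CPM.

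**Figure D5:**
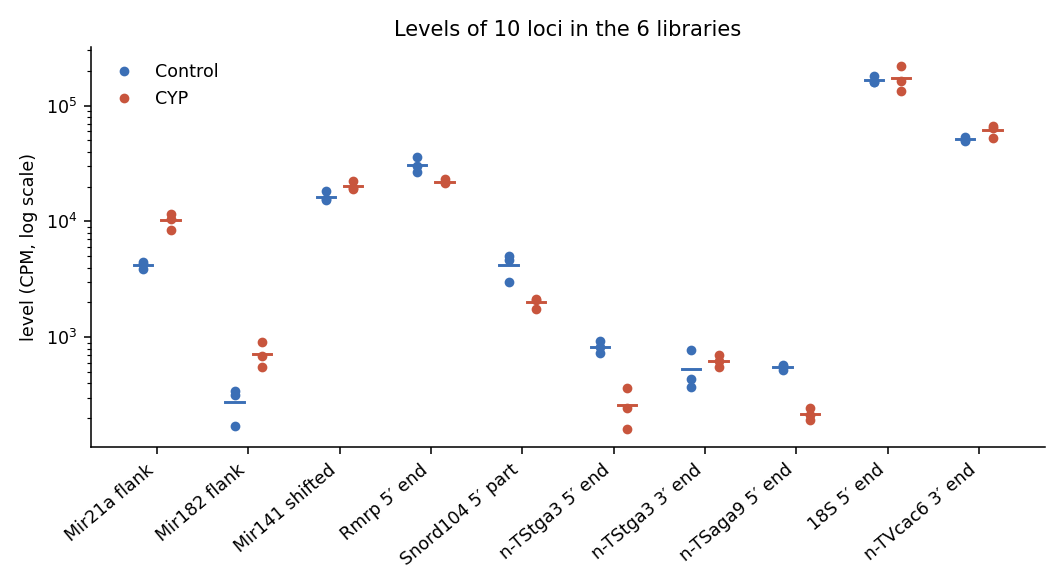
Level in CPM (y axis, log scale) of 10 loci (x axis) in the 3 Control and 3 CYP libraries, 1 point per library, with a line at each group's mean. The label Mir182 flank marks the locus that ends next to miR-182-3p. The Mir21a flank lies higher in CYP, at 8425 to 11686 CPM against 3885 to 4473, the n-TStga3 and n-TSaga9 5′ ends lie lower, and the n-TStga3 3′ end and the 18S 5′ end overlap.

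The plot of 10 loci by library sets these side by side, with the pair of n-TStga3 ends next to each other. Only the Mir21a flank among them passed the edgeR threshold.

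Loci in exons of protein-coding genes are led by Snrpb, which encodes a core protein of the splicing snRNPs. Its 13 sequences with 3348 UMIs stood at 11381, 9891 and 9467 CPM in Control and at 7839, 8434 and 7519 CPM in CYP. All CYP libraries were lower (log2 fold change −0.37 ± 0.15), which edgeR did not call (adjusted p = 0.293) and DESeq2 did (adjusted p = 0.0331). Of the 16 exon loci tested, 12 had a log2 fold change above 0, with a median of 0.46, and of the 44 intron loci tested 17 were above 0, with a median of −0.22. The exon loci in Nek11 (2753 UMIs) and Mapk15 (1462 UMIs) carry the CCA end of a tRNA gene, so this class is not only exon RNA. The most abundant intron locus, in Asap1, was at 5013 ± 1210.4 CPM in Control and 4733 ± 548 CPM in CYP.

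The highest fold change of all was that of a locus in an intron of Myzap, which encodes a protein of the intercalated discs of the heart. It had 18, 8 and 0 UMIs in Control and 147, 88 and 79 UMIs in CYP, at 164 ± 172 CPM against 1586 ± 482 CPM. Groups did not overlap, and edgeR did not call it (log2 fold change 3.34 ± 0.75, adjusted p = 0.0861), while DESeq2 did (adjusted p = 0.0262). Without Control 1 the log2 fold change was 4.44 and edgeR called it (adjusted p = 0.00930), and without Control 3 it was 2.64. A locus on exons of the immunoglobulin lambda genes Iglc2 and Iglj2 had 38, 43 and 42 UMIs in Control and 0, 18 and 8 in CYP, without overlap (log2 fold change −2.39 ± 0.70, edgeR adjusted p = 0.174). Leaving out 1 library moved this value between −1.84 (without CYP 1) and −3.51 (without CYP 2). Among leukocyte miRNAs in the miRNA table, miR-150-5p of lymphocytes ran from 571 to 776 CPM in Control and from 328 to 353 CPM in CYP. Others overlapped between the groups. For miR-223-3p the values ran from 1129 to 1329 CPM in Control and from 1321 to 1660 CPM in CYP. For miR-142a-3p they ran from 1250 to 1654 CPM in Control and from 1112 to 1633 CPM in CYP. The part of these levels in that locus was not tested. A locus on chromosome X with no annotated gene had 20, 13 and 15 UMIs in Control and 83, 74 and 38 UMIs in CYP (log2 fold change 1.82 ± 0.38, edgeR adjusted p = 0.0642, DESeq2 adjusted p = 0.0140). edgeR called it without Control 1 (adjusted p = 0.0196) and without CYP 3 (adjusted p = 0.0478).

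Host genes of bladder cell types were almost absent. Of the contractile list only Tpm2 has a locus (77 UMIs, log2 fold change −0.03), and of the urothelial list only Krt5 (40 UMIs in an intron, not tested). The matrix, leukocyte, erythroid, p53 target and histone lists have 0 loci. Translation genes have 9 loci, 8 on snoRNAs that lie within ribosomal protein genes or Eef2 and 1 just upstream of the RefSeq snoRNA AF357399 in Rps16, of which 8 were tested with a median of −0.17 and 0 called. In that list, Snord68 in Rpl13 was at 4815 ± 1169 CPM in Control and 3937 ± 453 CPM in CYP, Snord37 in Eef2 at 1188 ± 366 and 1099.6 ± 109 CPM, and Snord16a in Rpl4 at 1675 ± 205 and 1842 ± 623 CPM. The list of long non-coding RNAs has 2 loci, in Mirg (Mir382, above) and Gas5, the latter untested. The list of structural RNAs has 6 loci with a median of 0.06, in Rn7s1, Rn7s2, Rny1, Rmrp and Gm26917, and 0 were called.

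Loci off the annotated genes often carried tRNA ends. A leading sequence was counted here if it ends in CCA or has a tRNA gene's CCA end followed by up to 3 more bases. This held in 41 of the 103 loci with no annotated gene and 26 of the 58 with a gene on the opposite strand only. Of the 83 sequences that end in CCA away from tRNA gene ends, 54 carry the end of a tRNA gene or of a mitochondrial tRNA before it. In 28 loci, with 7.31% of the nuclear UMIs, the leading sequence has the end of a nuclear tRNA gene placed elsewhere. Of the 26 tested, 17 had a log2 fold change above 0, with a median of 0.13. The most abundant, opposite Ofcc1 and shown above, was at 11552, 21415 and 19573 CPM in Control and 17442, 24860 and 21232 CPM in CYP, with overlap (log2 fold change 0.27 ± 0.24, edgeR adjusted p = 0.648). The files do not tell which gene copy such an RNA came from.

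Ends of mitochondrial tRNAs followed by CCA, placed on nuclear chromosomes, make up 25 loci with 2.10% of the nuclear UMIs and represent 13 mitochondrial tRNAs. The valine tRNA mt-Tv gives 3578 UMIs in 2 loci, mt-Tw 1212 in 4 and the glutamine tRNA mt-Tq 492 in 3. Their share was 1.41%, 3.18% and 2.65% in Control and 1.42%, 2.32% and 1.81% in CYP, with overlap (exact p = 0.5). Of the 24 tested, 7 had a log2 fold change above 0 and 17 below, with a median of −0.20.

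A further 9 loci, with 0.411% of the nuclear UMIs, lie within 1 edit (a substitution, insertion or deletion) of a miRNA hairpin found elsewhere in the genome. The most abundant, opposite Tenm4 on chromosome 7 and near Mir125a in letters, stood at 2132, 1614 and 1777 CPM in Control and at 1166, 1279 and 970.2 CPM in CYP. All CYP libraries were lower without passing the test (log2 fold change −0.69, edgeR adjusted p = 0.217).

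Set against all UMIs, the nuclear share was higher in every CYP library than in every Control library. Its part of the uncharacterized sheet was 91.0%, 90.4% and 90.3% in Control and 93.4%, 92.3% and 94.0% in CYP, without overlap (90.6 ± 0.383% against 93.2 ± 0.850%, exact two-sided p = 0.1, the smallest possible). Per 1000000 UMIs of all tables they came to 3535, 4111 and 4254 in Control and 4542, 4490 and 5505 in CYP, again without overlap (3967 ± 381 against 4846 ± 572, exact p = 0.1). The part of the reads left out as too short ran from 6.74% to 11.7% in Control and from 12.8% to 15.6% in CYP, and its part in these shares was not tested. The share of nuclear UMIs ending in CCA was 17.2%, 23.3% and 22.1% in Control and 21.7%, 25.8% and 21.5% in CYP (exact p = 0.6), and the mean length was 25.7 and 25.3 bases (exact p = 0.4).

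The libraries hold 14900120 to 19442420 reads, of which 0.807% to 1.17% are uncharacterized and mappable. The sheet lists 32.4% to 39.2% of these, and 46092 to 63404 UMIs per library are nuclear, with 1.02 to 1.04 reads per UMI. In the miRNA table, miR-143-3p of smooth muscle stood at 218264 to 254500 CPM, miR-205-5p and miR-200c-3p of epithelium at 12930 to 17411 and 1759 to 2183 CPM, and the brain and liver miRNAs miR-124-3p and miR-122-5p at 1.18 to 3.83 and 4.63 to 7.23 CPM. The erythroid miR-451a ran from 58.8 to 76.8 CPM in Control and 23.2 to 58.7 CPM in CYP.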

How the data were processed

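Values in the authors' deposited sheets are raw counts, of UMIs and of reads, for each sequence or RNA, per the file headers. The submitters' processing notes name mm10, STAR 2.6, FastQC 0.11.7, DESeq2 and Trim Galore. Sources used here do not give the counting tool or how it placed a sequence that fits several sites. Every nuclear sequence reaches at least 10 UMIs in 1 library, so rarer ones were not analysed here. The sheet's positions count from 0 (31 of 31 exact hairpin matches) and are printed from 1.

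Loci were annotated from GENCODE M21 and RefSeq, and arms and hairpins were taken from RefSeq (GRCm38.p6). UMI counts of all loci of the sheet, nuclear and mitochondrial, entered edgeR 4.0.16 (R 4.3.3; TMM scaling, filterByExpr at 10 counts and 15 in total, robust quasi-likelihood test, Benjamini-Hochberg adjustment); DESeq2 1.42.0 was an alternative. The edgeR script was tested on simulated data. Shares and ratios were compared by exact two-sided permutation tests, whose smallest p for 3 against 3 is 0.1. Depth was 46092 to 63404 nuclear UMIs per library, and the number of UMIs behind a locus limits its precision. Merging rules, other scalings, filters, read counts and leaving out each library were tried as alternatives. Replicate numbers in the titles were not used as pairs. Deviations from the group means correlated at 0.286, −0.152 and −0.0041 over 363 loci between libraries of the same number. With 3 libraries a group, these values cannot tell whether libraries of the same number share an effect.

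The members, classes and lists were chosen with earlier results of these data known. Named loci are those called, the 10 with the most UMIs, the leading locus of each class and those in listed genes (32 loci); 19 more were added after their values were seen, as were the groups by sequence end, the gene pairs and the comparison with mature arms.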

Additional observations from a re-analysis of the deposited data

How the results depend on the processing

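The count of loci called higher was 1 and lower 0 under relative log expression (RLE) factors, upper-quartile factors, sheet totals, no filter on low counts, merging within 100 bases, nuclear loci alone, and merging by 5′ ends, an alternative chosen after seeing the data. It was 2 higher and 0 lower with totals over all UMI tables, which moved the median log2 fold change from 0.12 to 0.33. DESeq2 called 4 higher and 8 lower, a mean of at least 20 UMIs 2 and 5, single sequences 5 and 3, and read counts 1 and 1. A replicate block gave 10 higher and 7 lower, and whether libraries of the same number share an effect cannot be told here. Leaving out 1 library gave 0 to 4 higher and 0 to 9 lower, with 4 and 9 without Control 1, and 0 and 0 without Control 3, CYP 1 or CYP 2. The cause of these changes was not tested.

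Of 48 named loci tested, 29 kept the sign of their fold change under each alternative that gave them a value and 19 did not, none of them called. With a mean of at least 20 UMIs, 4 of the 48 (n-THgtg1, Tpm2 and both AF357399 loci) were filtered out and have no value. With RLE, upper-quartile and sheet totals the Gm24265 locus was at −0.027, −0.046 and −0.024, and the 18S 5′ end at −0.025 with upper-quartile factors. With totals over all tables, the values were 0.14 for Snord37, 0.14 for Rn7s1, 0.19 for Rn7s2, 0.16 for Asap1, 0.024 for Mir125b-2, 0.17 for internal 18S, 0.17 for Mir145a and 0.20 for Tpm2. DESeq2 gave −0.027 for Gm24265. A mean of at least 20 UMIs gave −0.057 for the Gnb1l locus, −0.093 for the 18S 5′ end, −0.13 for Gm24265, −0.00034 for Rny1 and −0.0045 for Snord16a. Single sequences gave 0.13 for Snord37, 0.19 for Rn7s2, −0.040 for Gnb1l, −0.077 for the 18S 5′ end, 0.11 for LOC115489588, −0.70 for the Rmrp 3′ end and −0.088 for Gm24265. Merging within 100 bases, which sums neighbouring loci, gave −0.63 for the n-TStga3 3′ end, 0.35 for the Snord43 5′ part and −0.54 for the AF357399 upstream locus, and merging by 5′ ends gave 0.36 for the Snord43 5′ part. Nuclear loci alone gave −0.023 for the 18S 5′ end and −0.055 for Gm24265, and read counts −0.0088 and −0.032. The replicate block gave 0.029 for Rn7s2 and −0.034 for Gm24265.

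Leaving out 1 library moved the log2 fold change from −0.32 to 0.063 for Snord37, −0.47 to 0.0058 for Rn7s1, −0.40 to 0.26 for Rn7s2, −0.055 to 0.44 for the Ofcc1 locus, −0.26 to 0.021 for Asap1, −0.16 to 0.22 for Gnb1l, −0.17 to 0.14 for the 18S 5′ end and −0.26 to 0.19 for internal 18S. It ran from −0.11 to 0.47 for the Rmrp 3′ end, −0.21 to 0.030 for Tpm2, −0.33 to 0.14 for Gm24265, −0.076 to 0.21 for Rny1, −0.093 to 1.52 for the AF357399 upstream locus and −0.16 to 0.26 for Snord16a. The difference in class share (CYP minus Control, percentage points) ran from −0.0164 to 0.0688 for exons of genes not typed as protein-coding. It ran from −0.395 to 0.570 for opposite strand loci, −0.0706 to 0.251 for introns, −1.09 to 0.427 for hairpins and −0.0507 to 0.00074 for the 7SL and Y class. For loci with no gene it ran from −0.836 to 0.461, for rRNA from −1.86 to 0.603 and for snRNAs from −0.272 to 0.0659. Loci under 100 UMIs rest on few molecules per library, and 3 libraries a group allow no permutation p below 0.1.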
